A study of Homo sapiens with 42 samples.

Results

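The C/EBP family was taken here as the 7 genes listed under the symbols DDIT3, CEBPA, CEBPB, CEBPD, CEBPE, CEBPG and CEBPZ, out of 50648 genes shared by all count tables. Each symbol was found in all 7 tables. Messenger RNA was measured by RNA sequencing in 7 cell lines of human acute lymphoblastic leukaemia. There were 5 lines of the B-precursor type (697, Nalm6, REH, RS411 and SUPB15) and 2 of the T type (CEM, DND41). As background, SUPB15 carries the BCR-ABL1 fusion, RS411 KMT2A-AFF1 and REH ETV6-RUNX1. Every line was sampled untreated and after 4 h in 1 IU/ml L-asparaginase, an enzyme drug that removes asparagine and, more slowly, glutamine from the medium. All groups grew in the same RPMI-based medium with serum, glutamine and antibiotics, and the untreated group stands for that medium alone. The labels record 3 independent experiments for each of the 14 groups, so n = 3 in every group below, and each line stands for the leukaemia of a single patient.

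C/EBP proteins are transcription factors that bind DNA as pairs through a basic region and a leucine zipper, the bZIP fold. CEBPA and CEBPE drive the making of granulocytes, CEBPB and CEBPD answer inflammation and stress, and CEBPG, which lacks an activation domain, pairs with other members and with ATF4. DDIT3, also called CHOP, has an altered basic region and is known for its induction when translation factor eIF2 is phosphorylated, as happens when amino acids run short and the kinase GCN2 (EIF2AK4) is active. CEBPZ shares the name but not the bZIP fold: it is a nucleolar protein of ribosome assembly related to yeast Noc1.

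DDIT3 and CEBPB were higher after L-asparaginase in all 7 lines, by 2.13 to 10.3-fold and by 1.54 to 5.47-fold. CEBPG was higher in 4 lines by 1.37 to 2.20-fold, CEBPE was higher in 2 of the 4 lines in which it could be tested, and CEBPA was lower in 2 of 5. CEBPZ passed the test in none of the 7 lines. CEBPD had at most 1 count in every library outside REH. Of all genes tested in a line, between 2.4% (697) and 36.7% (CEM) were called in either direction.

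The promoters of DDIT3, CEBPB and CEBPG are printed first because these are the members that were higher in 4 or more lines. Sequences are from RefSeq on GRCh38.p14, run 5′ to 3′ on the strand of the gene and end at the last base before a RefSeq transcription start. Capitals mark matches to any of 4 letter patterns, searched on both strands: TGATGNAA, the composite of a C/EBP and an ATF site, TTGCNNAA, a C/EBP site, TGACGTCA, the cyclic AMP response element, and CCAAT.
DDIT3, chr12:57520518-57520767, minus strand: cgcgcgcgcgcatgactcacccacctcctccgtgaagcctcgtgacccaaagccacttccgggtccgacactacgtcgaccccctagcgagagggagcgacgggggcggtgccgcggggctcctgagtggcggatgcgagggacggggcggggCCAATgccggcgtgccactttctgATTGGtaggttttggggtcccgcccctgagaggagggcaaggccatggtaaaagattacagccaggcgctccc
CEBPB, chr20:50190333-50190582, plus strand: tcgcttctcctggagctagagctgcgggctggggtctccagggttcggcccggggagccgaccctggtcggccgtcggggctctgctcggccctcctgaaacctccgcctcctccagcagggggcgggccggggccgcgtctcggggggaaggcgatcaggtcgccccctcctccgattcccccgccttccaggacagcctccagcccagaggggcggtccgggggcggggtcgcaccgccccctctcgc
CEBPG, chr19:33373896-33374112, plus strand: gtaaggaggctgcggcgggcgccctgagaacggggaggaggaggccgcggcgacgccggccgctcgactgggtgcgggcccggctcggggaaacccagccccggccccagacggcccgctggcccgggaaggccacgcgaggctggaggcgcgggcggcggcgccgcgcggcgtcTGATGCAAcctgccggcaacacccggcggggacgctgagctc

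The DDIT3 window held CCAAT beginning 97 bases upstream of the start and its reverse complement ATTGG beginning 73 bases upstream. It lies inside the span of DDIT3 (chr12:57516588-57521737 in GENCODE 29), because other transcripts begin further upstream, and it overlaps none of the exons of the gene. In the CEBPG window, TGATGCAA begins 42 bases upstream of the start. This window lies inside the span of CEBPG (chr19:33373330-33382686), and 33 bases that belong to an exon of the gene were left out of it. The printed CEBPB window held no match and lies before the start of this gene, which has a single exon (chr20:50190734-50192689), and inside the span of CEBPB-AS1 on the other strand. RefSeq lists 2 starts for each of these genes, and the window before the other start was not printed because the bases next to that start lie in an annotated exon of the gene. In those windows DDIT3 held CCAAT 100 and ATTGG 76 bases upstream, CEBPB held CCAAT 245 bases upstream, and CEBPG held ATTGG 85 and 24 bases upstream and no composite site. Among 34941 RefSeq windows of the same 250 bases, TGATGNAA was found in 3.15%, TTGCNNAA in 9.06%, TGACGTCA in 1.63% and CCAAT in 32%. A match is a match of letters only, and a window without one says nothing about sites outside it. The counts themselves were made on hg19, so these GRCh38 positions describe the genes and not the read counts.

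Libraries held between 15.07 and 77.14 M counts (mega counts, median 40.28 M). In CEM every treated library (50.81 to 71.52 M) was deeper than every untreated one (22.68 to 31.6 M). Lineage markers were checked against the labels: at least 6 of 7 B-lineage markers reached 1 CPM (counts scaled to a common library total) in every B line, and 7 and 6 of 7 T-lineage markers did in CEM and DND41, against 1 in every B line. Untreated CEM and DND41 also had 3 of 7 B-lineage markers at that level, and the B-lineage list summed to 901 CPM in DND41 and 60.8 CPM in CEM, against 1080 CPM in the B line 697. Myeloid markers, which matter for this family, were low, with a summed level of 0.176 to 47.8 CPM over 8 genes in untreated lines, led by MPO in REH (35.3 CPM); ELANE was at 0 in 6 lines and at 0.00609 CPM in SUPB15. In every line the first untreated library held the lowest share of 5 small non-coding RNAs. That share was 3.35 to 7.23% of counts in Nalm6, SUPB15, RS411, 697 and DND41, and 9.48 and 9.84% in REH and CEM, where the next library held 9.77 and 9.88%. The next library held 11.5% in Nalm6, 8.91% in SUPB15 and 7.87% in 697. In RS411 (7.23%) and DND41 (5.63%) it held 7.83 and 5.77%, so the first library stood little apart there. The treated libraries SUPB15 C, REH A and RS411 B held 240, 17 and 14 genes with at least 10 counts that had no count in the other 5 libraries of the line, against 0 to 4 in every other library. Results below are given without these 5 untreated and 3 treated libraries where that changed them.

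**Figure D1:**
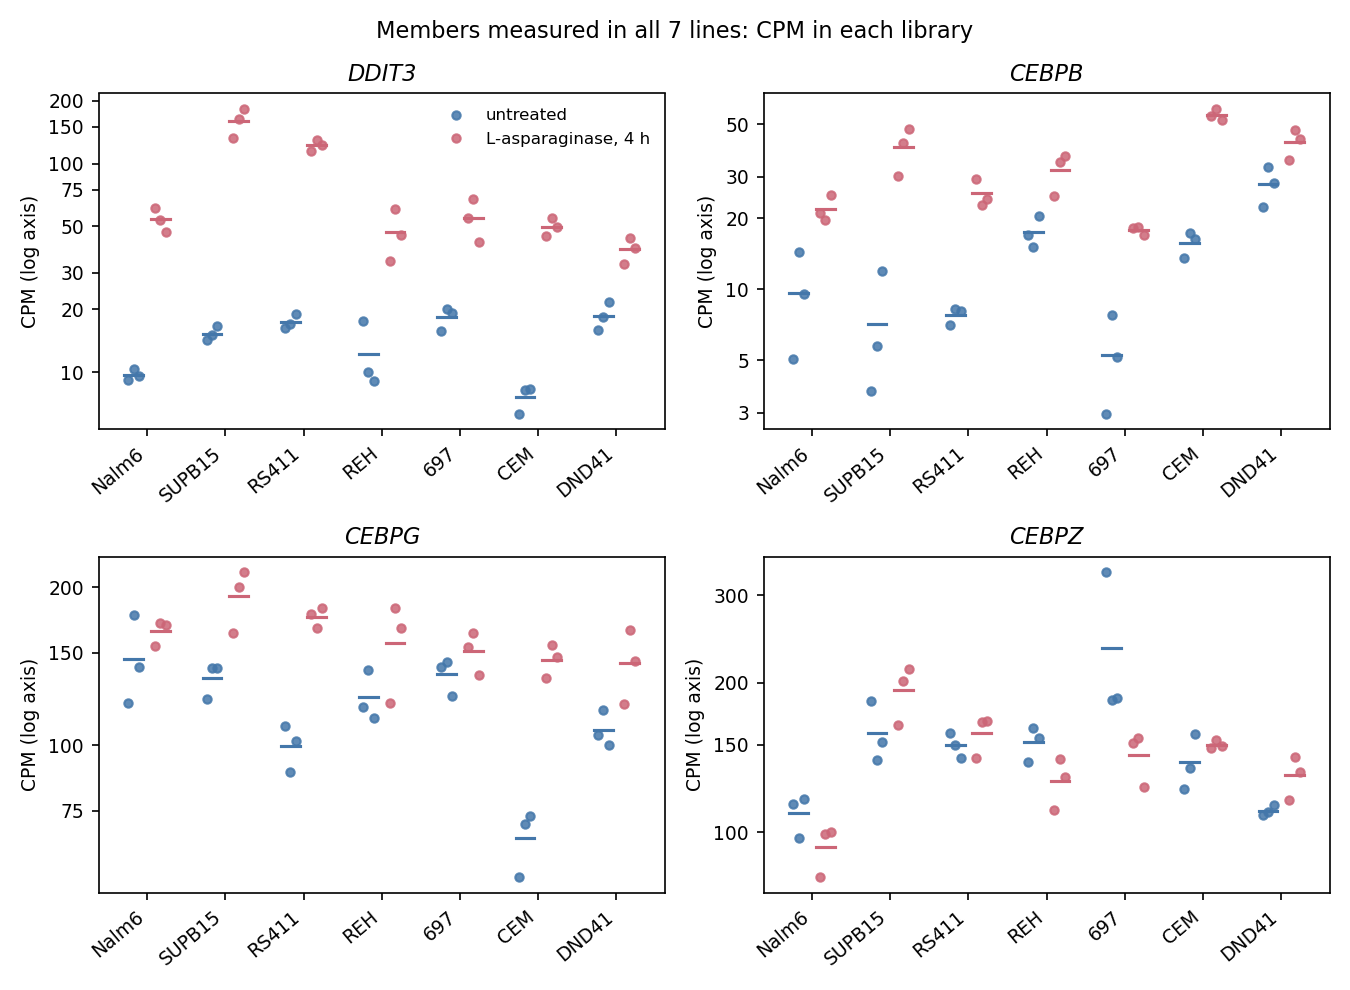
CPM of DDIT3, CEBPB, CEBPG and CEBPZ in each of the 42 libraries, on log axes, by line; blue points are untreated libraries, red points libraries after 4 h of L-asparaginase, and bars the mean of 3. For DDIT3 and CEBPB every treated point lies above every untreated point of its line, and in CEBPZ the untreated library of 697 at 334 CPM stands above all other points.

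DDIT3 had untreated means of 7.58 to 18.6 CPM over lines, and its fold change was highest in SUPB15 and lowest in DND41. Levels are CPM scaled by TMM, a method that removes differences in library composition. In Nalm6, DDIT3 stood at 9.21, 10.3 and 9.63 CPM untreated and at 61.5, 53.6 and 46.7 CPM after the drug. In SUPB15 it stood at 14.3, 15.0 and 16.6 CPM untreated and at 133, 163 and 183 CPM treated. RS411 had 16.2, 16.9 and 19.1 CPM untreated and 115, 129 and 123 CPM treated. In these lines even the lowest treated library was over 4 times the highest untreated one. REH had 17.6, 10.0 and 9.07 CPM untreated and 34.2, 60.5 and 45.6 CPM treated. In 697 the untreated levels were 15.7, 20 and 19.3 CPM and the treated ones 54.7, 67.7 and 42.2 CPM. Groups did not overlap in either line, although the untreated library A of REH stood above the other untreated libraries of that line. CEM had 6.30, 8.16 and 8.29 CPM untreated and 44.7, 54.8 and 49.4 CPM treated. DND41 had 15.9, 18.3 and 21.6 CPM untreated and 33.0, 43.8 and 39.4 CPM treated. Again no treated library reached down to an untreated one, so that the groups were apart in 7 of 7 lines. Of all genes tested, the share with every treated library above every untreated one was 18.9% in Nalm6, 21.7% in SUPB15, 19.8% in RS411, 20.8% in REH, 17.1% in 697, 25.3% in CEM and 23.2% in DND41.

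Fitted per line with the quasi-likelihood test of edgeR and adjusted by Benjamini-Hochberg over all genes tested, the DDIT3 rise was 10.3-fold in SUPB15 (log2 3.36 ± 0.15 SE, adjusted p = 2.99e-05), 7.10-fold in RS411 (adjusted p = 4.65e-05), 6.57-fold in CEM (1.49e-07) and 5.68-fold in Nalm6 (8.14e-06). It was 3.95-fold in REH (0.000525), 2.97-fold in 697 (0.0235) and 2.13-fold in DND41 (log2 1.09 ± 0.15, 0.00149). In 697 the call was lost in 5 of 6 fits that left out a library: without untreated library 2 or 3 or without any treated library, the log2 change was 1.39 to 1.74 and the adjusted p 0.0743 to 0.167. Without untreated library 1 it was kept. The mean of the 7 lines in a joint model of all 42 libraries was 2.28 ± 0.078 on the log2 scale (adjusted p = 1.02e-21). For comparison, 37.4% of 20983 genes passed the test of the mean response (17.8% higher and 19.6% lower), and the median log2 change of all genes was -0.02.

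The size of the DDIT3 rise differed between lines. The test of all 6 differences among the 7 responses gave an adjusted p of 1.63e-06 with a range of 2.33 log2 units, where 19.4% of all genes passed. Against the mean of the other 6 lines, the DDIT3 response was larger in SUPB15 by 1.29 ± 0.21 (adjusted p = 0.000349). It was smaller in DND41, at -1.43 ± 0.22 (4.86e-05), and in 697, at -0.82 ± 0.21 (0.0118). The other 4 lines were not told apart from the rest, with differences between -0.39 and 0.62.

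CEBPB, which encodes the activating and inhibitory isoforms of C/EBPβ from a single exon, was the other member higher in all 7 lines. In SUPB15 it stood at 3.70, 5.75 and 12 CPM untreated and at 30.3, 41.8 and 47.6 CPM treated. CEM had 13.5, 17.3 and 16.4 CPM untreated and 54.3, 58.2 and 52.4 CPM treated. In 697 the values were 2.96, 7.75 and 5.15 CPM against 18.1, 18.4 and 17 CPM. The untreated libraries of SUPB15 and 697 were widely spread, and no groups overlapped. RS411 had 7.06, 8.21 and 8.07 CPM untreated and 29.5, 22.9 and 24.1 CPM treated. Nalm6 had 5.08, 14.4 and 9.55 CPM untreated and 21.1, 19.7 and 25.0 CPM treated. These groups also stood apart, with a narrower gap in Nalm6. In REH the untreated levels were 17.1, 15.2 and 20.4 CPM and the treated levels 24.9, 34.6 and 36.7 CPM. DND41, the line with the highest untreated level, had 22.3, 33.0 and 28.3 CPM untreated and 35.3, 47.4 and 43.2 CPM treated. Here the gap between the highest untreated and the lowest treated library was small.

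By the same test, CEBPB rose 5.47-fold in SUPB15 (log2 2.45 ± 0.38, adjusted p = 0.00256), 3.51-fold in CEM (5.39e-07), 3.37-fold in 697 (0.0477) and 3.30-fold in RS411 (0.00117). The rise was 2.32-fold in Nalm6 (0.0123), 1.88-fold in REH (0.00201) and 1.54-fold in DND41 (0.0203). In 697 the adjusted p was 0.0712 to 0.252 without untreated library 2 or 3 or without any treated library. In DND41 it was 0.0628 to 0.105 without untreated library C or treated library B or C. The mean over lines was 1.48 ± 0.11 (adjusted p = 6.75e-13). The responses differed between lines (adjusted p = 0.0126, range 1.88), with SUPB15 above the others by 1.15 ± 0.32 (0.0416) and DND41 at -1.04 ± 0.32 below them (0.0446). That test was lost without DND41 (adjusted p = 0.107) and without the 3 treated libraries named above (0.0569).

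Being called higher in every line was uncommon among genes: 29 of the 11722 genes tested in all 7 lines, or 0.247%, were. DDIT3 and CEBPB are 2 of these 29. Which genes move most like them was asked with the root mean square difference of the 7 log2 changes, over 12190 genes averaging at least 1 log2 CPM. Nearest to DDIT3 were SESN2, a stress-induced regulator of mTORC1 (difference 0.53 log2 units), the kinase FGR (0.73), CHAC1, which degrades glutathione (0.74), SLAMF1 (0.88) and KIFC3 (0.89). Nearest to CEBPB were TSC22D3 (0.47), TMEM79 (0.48) and DDIT4, an inhibitor of mTORC1 (0.48). These distances describe the same 42 libraries from which the members' values come.

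The read counts of CEBPB cannot be separated by strand, since the counting is not described in the sources used here. CEBPB-AS1, a gene on the opposite strand, shares 231 exon bases with CEBPB and was itself higher in 7 of 7 lines, with log2 changes from 1.22 in REH to 2.75 in CEM. Its level was much lower: 0.226 to 1.4 CPM untreated and 0.706 to 4.15 CPM treated.

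CEBPG had the smallest mean rise of the members called higher, from a level of 66.7 to 146 CPM untreated. In CEM it stood at 56.0, 70.7 and 73.3 CPM untreated and at 135, 155 and 147 CPM treated. RS411 had 109, 88.8 and 102 CPM untreated and 178, 167 and 182 CPM treated. In both lines the groups were far apart. SUPB15 had 123, 140 and 141 CPM untreated and 164, 201 and 214 CPM treated. DND41 had 104, 117 and 100 CPM untreated and 120, 166 and 145 CPM treated. In DND41 the highest untreated and the lowest treated library were nearly level. In Nalm6 (120, 177 and 141 against 154, 171 and 169 CPM), REH (118, 139 and 113 against 120, 183 and 168 CPM) and 697 (141, 144 and 124 against 154, 164 and 136 CPM) the groups overlapped.

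The CEBPG rise was 2.20-fold in CEM (log2 1.14 ± 0.10, adjusted p = 1.38e-05), 1.77-fold in RS411 (0.00686), 1.41-fold in SUPB15 (0.0226) and 1.37-fold in DND41 (0.0391). In Nalm6, REH and 697 the log2 changes of 0.21, 0.38 and 0.13 did not pass (adjusted p = 0.307, 0.0718 and 0.671). In REH, whose libraries were taken as paired by letter, a model with the replicate block gave 0.37 at an adjusted p of 0.00953. Without treated library A of REH, named above, the value was 0.53 (0.0138). The calls in SUPB15 and DND41 were each lost in 4 of 6 fits that left out a library, with adjusted p of up to 0.11 without untreated B or C or treated B or C of SUPB15 and up to 0.196 without the same letters of DND41. The call in RS411 was lost without treated library C (0.0524). The mean over lines was 0.51 ± 0.055 (adjusted p = 2.06e-09), and the responses differed (0.00355, range 0.98), with CEM above the others by 0.72 ± 0.16 (0.0142). Without CEM that difference no longer passed (0.125). The highest line was 2.19 times the lowest untreated and 1.34 times treated, a narrowing that was not tested. CEM was the lowest untreated line, at 66.7 CPM against 99.8 CPM in RS411, the next one, and stood at 146 CPM treated. Closest to CEBPG in response were ZMYM6 (0.14 log2 units), BIRC2, an inhibitor of apoptosis (0.16), and C9orf91 (0.2).

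**Figure D2:**
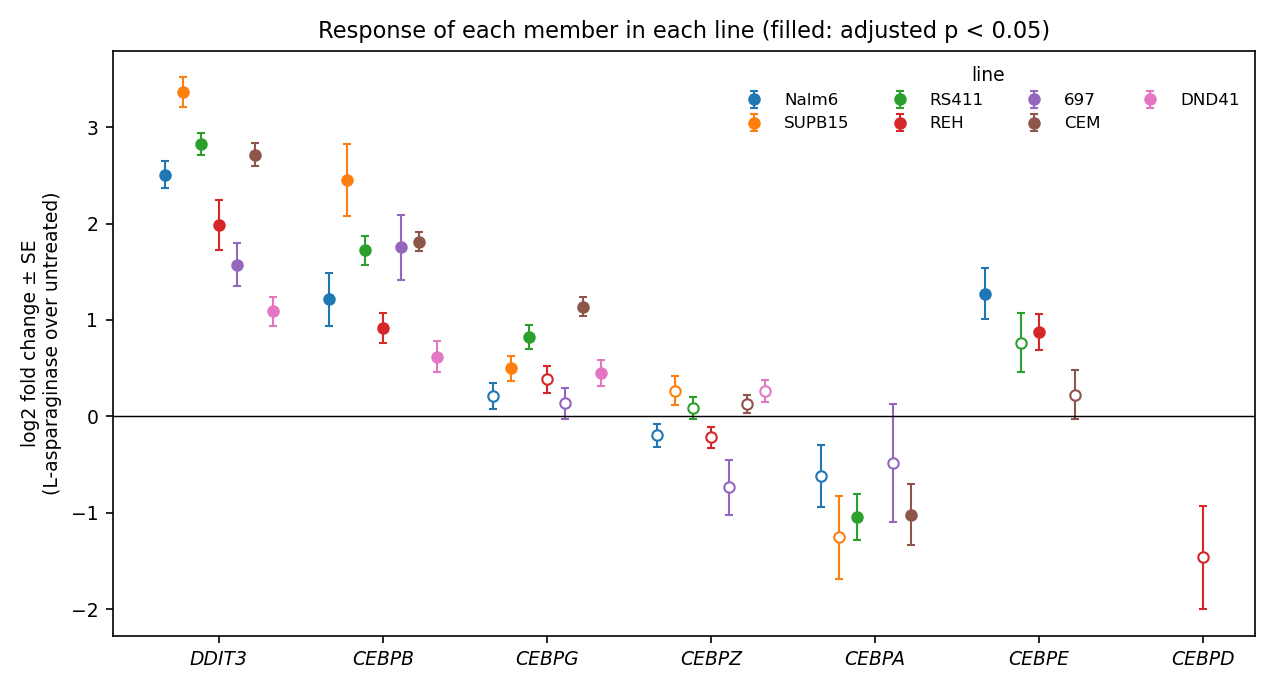
Log2 fold change of each member (L-asparaginase over untreated) in each line in which it was tested, with its SE from the model of that line; filled points passed the test at an adjusted p under 0.05 and open points did not. DDIT3 and CEBPB are filled in all 7 lines, CEBPZ in none, and all 5 points of CEBPA lie below 0.

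Of the members tested in a line, 3 of 6 were called in Nalm6, all higher, where 20.8% of all genes tested were called. The count was 3 of 5 in SUPB15 (26.1% of genes), 3 of 6 in REH (26.5%) and 3 of 4 in DND41 (26.9%), again all higher. In RS411 (12.8%) and CEM (36.7%) it was 4 of 6, with 3 higher and 1 lower. In 697 the 2 of 5 members called stand beside 2.4% of all genes. Counting higher calls alone, the share of all genes was 8.96% in Nalm6, 12.9% in SUPB15, 7.58% in RS411, 13.2% in REH, 1.55% in 697, 19% in CEM and 15.1% in DND41. For lower calls it was 11.8, 13.2, 5.19, 13.3, 0.849, 17.7 and 11.8% in the same order.

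CEBPA, the lineage factor of granulocytes, was the member that moved down. Its untreated level ranged from 0 to 45.2 CPM over lines. In SUPB15 it stood at 15.9, 60.0 and 59.6 CPM untreated and at 13.3, 21.8 and 22.1 CPM treated. In RS411 the values were 6.57, 12.2 and 11.6 CPM against 4.34, 5.60 and 4.59 CPM. In 697 they were 3.70, 26.9 and 26.5 CPM against 13.3, 12.3 and 14.9 CPM. The groups stood apart in RS411 and overlapped in SUPB15 and 697, in each through the first untreated library. Nalm6 had 1.12, 2.46 and 2.62 CPM untreated and 1.12, 1.13 and 1.68 CPM treated. CEM had 0.590, 0.581 and 0.505 CPM untreated and 0.238, 0.246 and 0.334 CPM treated, from 49 and 51 counts in all. The groups overlapped in Nalm6 and not in CEM. All treated libraries lay below all untreated ones for 20.9% of genes in Nalm6, 22.5% in SUPB15, 16.8% in RS411, 20.4% in REH, 15.5% in 697, 23.1% in CEM and 20.1% in DND41.

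CEBPA was 2.07-fold lower in RS411 (log2 -1.05 ± 0.24, adjusted p = 0.0257) and 2.03-fold lower in CEM (-1.02 ± 0.32, 0.025), and the log2 values in SUPB15 (-1.26 ± 0.43, 0.0593), Nalm6 (-0.62 ± 0.32, 0.2) and 697 (-0.48 ± 0.61, 0.681) did not pass. In SUPB15 the libraries were taken as paired by letter, which no label states and which is uncertain. There the model with the replicate block gave -1.09 at an adjusted p of 0.0254. The mean of these 5 lines, which had to replace the mean of 7 because other groups held no counts, was -0.90 ± 0.24 (0.00438; 33.5% of genes passed). The responses of the 5 lines were not told apart (adjusted p = 0.924). The RS411 call was lost without 5 of its 6 libraries, all but untreated A (adjusted p of up to 0.126), and the CEM call without untreated A or B or treated A or B (up to 0.0934).

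The first untreated library moved these values in the other direction. Without it, CEBPA was lower in SUPB15 (-1.61, adjusted p = 0.000241), 697 (-0.96, 0.000335) and Nalm6 (-0.88, 0.0243). CEBPA was called lower in 5 of 5 lines once the first untreated libraries of Nalm6, SUPB15, RS411, 697 and DND41 were left out. The mean of 5 lines was then -1.16 ± 0.12. All CEM libraries were kept in this count, and the CEM call was lost without its own untreated library A (0.0544). Where CEBPA had counts, the libraries left out held less of it than the other untreated ones, so leaving them out lowers the values. In these first libraries CEBPA stood at 3.70 CPM against a mean of 26.7 in the other untreated libraries of 697, and at 15.9 against 59.8 in SUPB15, which are log2 ratios of -2.85 and -1.91. The ratio was -1.19 in Nalm6, -0.86 in RS411 and 0.12 in CEM. CEBPB was low in the same libraries of SUPB15 (-1.26), Nalm6 (-1.24) and 697 (-1.12), whereas DDIT3 ratios there lay between -0.32 and -0.11. The share of the 5 small RNAs was low in the same libraries, and its part in these values was not tested.

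**Figure D3:**
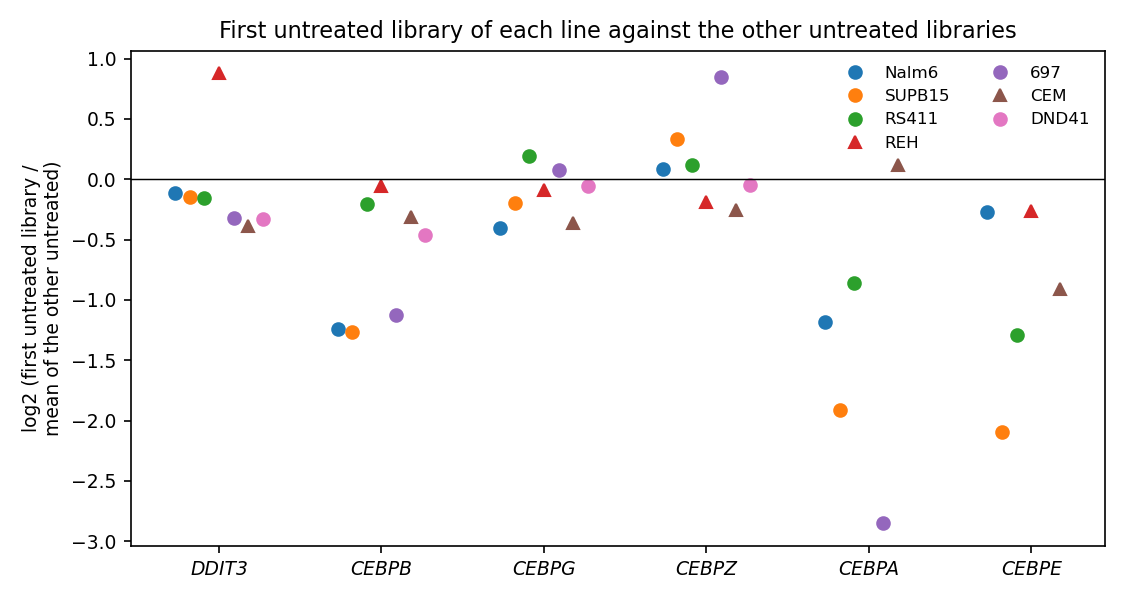
Log2 ratio of the first untreated library of each line to the mean of its other untreated libraries, for the members with counts in all 3; circles are the 5 lines whose first untreated library held 3.35 to 7.23% of 5 small non-coding RNAs, triangles REH and CEM, at 9.48 and 9.84%. CEBPA lies at -2.85 in 697 and at -1.91 in SUPB15, while DDIT3 of the 5 lines lies between -0.33 and -0.11.

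CEBPA had no count in any untreated library of REH or in any library of DND41. The 3 untreated libraries of REH together allow up to 0.0267 CPM for a count of 0 (3 counts), and those of DND41 up to 0.0207 CPM, a limit of counting error only. The 4 counts of CEBPA in treated REH all came from library A, which also holds 17 genes absent from the other REH libraries. CEBPA-AS1, named CEBPA-DT in GENCODE 29, runs the opposite way next to CEBPA without shared bases. It was lower in RS411 (log2 -1.73 ± 0.31, adjusted p = 0.0116), and stood at -1.03 ± 0.37 in SUPB15 (0.0708) and -0.38 ± 0.33 in 697 (0.546).

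CEBPE, which acts late in granulocyte maturation, was low but moved up. In REH it stood at 4.40, 4.51 and 6.07 CPM untreated and at 7.65, 8.58 and 10.5 CPM treated. In Nalm6 the values were 0.642, 0.758 and 0.796 CPM against 1.72, 1.36 and 2.12 CPM. RS411 had 1.55, 3.89 and 3.69 CPM untreated and 5.07, 4.92 and 5.44 CPM treated. The groups were apart in these 3 lines. In CEM they overlapped, at 1.89, 3.21 and 3.87 CPM against 2.78, 3.15 and 4.55 CPM. The rise was 2.41-fold in Nalm6 (log2 1.27 ± 0.27, adjusted p = 0.00833) and 1.83-fold in REH (0.87 ± 0.18, 0.00596). RS411 (0.76 ± 0.31, 0.142) and CEM (0.22 ± 0.25, 0.529) did not pass, and the Nalm6 call was lost without treated library C (0.0536). Without untreated library A, the value in RS411 was 0.48 (0.0553). The mean over these 4 lines was 0.76 ± 0.16 (0.000602, where 27% of genes passed), and their responses were not told apart (0.554). Without the 5 first untreated libraries named above, the mean of the 4 lines was 0.68 ± 0.13. SUPB15 (13 and 19 counts over the untreated and treated libraries) and 697 (5 and 10 counts) held too few counts to be tested, and DND41 held none. The summed level of the 8 myeloid markers also moved in some of these lines, from 8.81 to 16.2 CPM untreated to 23.3 to 25.1 CPM treated in RS411 and from 7.72 to 15.9 to 15.7 to 24.9 CPM in SUPB15, whereas in REH it was 32.6 to 73.3 CPM untreated and 43.0 to 69.0 CPM treated and in Nalm6 5.1 to 6.76 and 5.55 to 8.58 CPM. In 697 it went from 1.45 to 3.15 CPM untreated to 4.42 to 4.96 CPM treated. In CEM it was lower after treatment, at 1.62 to 2.6 CPM untreated against 0.802 to 1.17 CPM treated. CEBPA was called lower in both RS411 and CEM, where this sum went opposite ways. The part of these markers in the CEBPE and CEBPA values was not tested.

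CEBPD, an acute-phase gene, was tested only in REH, at 0.273, 0.360 and 0.405 CPM untreated and 0.0660, 0.0718 and 0.214 CPM treated. These values rest on 40 and 13 counts, and the groups did not overlap. CEBPD reached the count filter in REH through its untreated libraries, at 8, 13 and 19 counts against 1, 4 and 8 treated. Such a filter favours a fall and a gap between the groups. The log2 change of -1.47 ± 0.54 did not pass (adjusted p = 0.0655), nor did it with DESeq2 (0.219) or without the filter (0.11). It passed with the replicate block (-1.51, 0.0323) and without treated library C (-2.22, 0.0493). In the other 6 lines CEBPD had 4 counts in all, 3 of them in untreated libraries and 1 in a treated one.

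**Figure D4:**
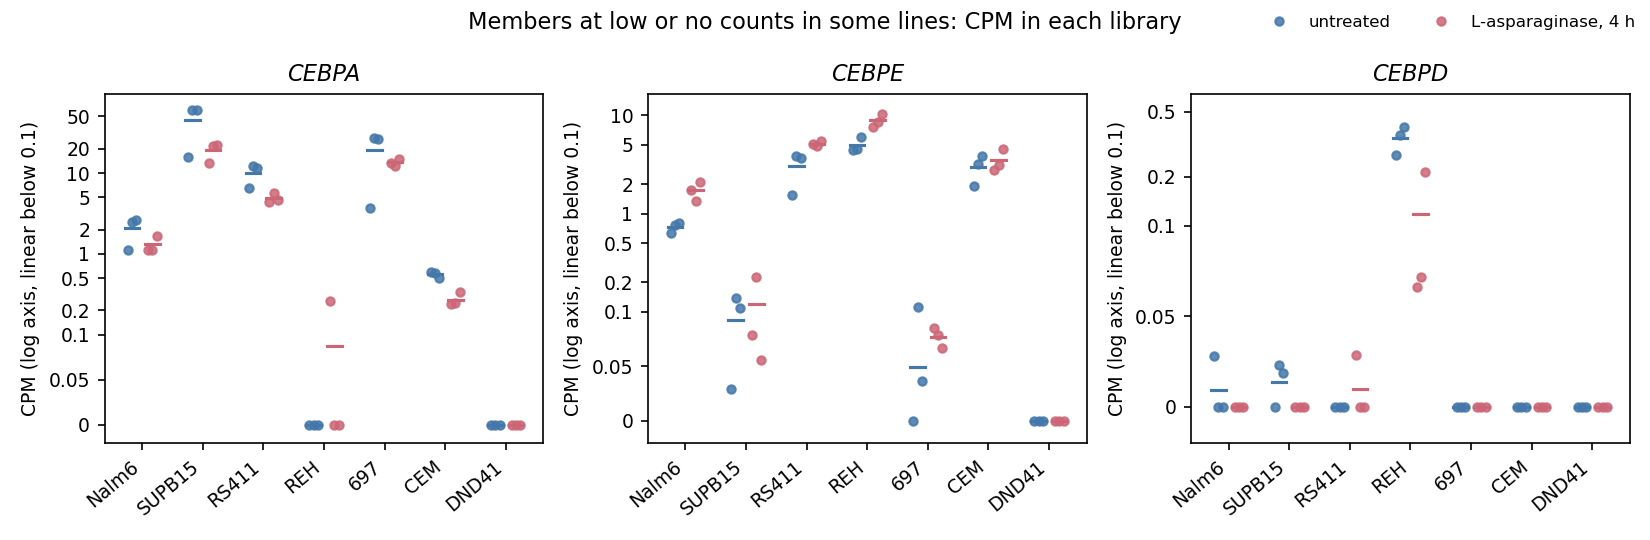
CPM of CEBPA, CEBPE and CEBPD in each library by line, on an axis that is logarithmic above 0.1 CPM and linear below it; blue points are untreated and red points treated libraries, and bars the mean of 3. CEBPA has a low first untreated point in SUPB15 and 697, CEBPE is above 1 CPM in untreated libraries of RS411, REH and CEM, and CEBPD is above 0.1 CPM only in REH.

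CEBPZ, the nucleolar member, was called in no line, with positive log2 changes in 4 lines and negative ones in 3. All treated libraries lay below all untreated ones in REH and 697, as for 20.4 and 15.5% of genes there. In DND41 they lay above, as for 23.2% of genes. Group means ran from 109 to 235 CPM untreated and from 93.4 to 193 CPM treated, and log2 changes from -0.74 in 697 to 0.27 in SUPB15. None passed in the models of single lines (lowest adjusted p = 0.122, in DND41), and the mean was -0.07 ± 0.060 (0.456). Without untreated library A, CEBPZ in SUPB15 passed at 0.44 (adjusted p = 0.011), and without untreated library C it passed in CEM at 0.24 (0.0336). In REH the treated libraries held 111, 140 and 129 CPM and the untreated ones 139, 162 and 155 CPM, and the replicate block gave -0.22 at an adjusted p of 0.0192. The responses differed between lines (adjusted p = 0.00897, range 1.00), with 697 at -0.75 ± 0.17 below the others (0.00393). In 697 the untreated libraries held 334, 184 and 186 CPM and the treated ones 151, 155 and 123 CPM. The first untreated library of 697 stood above the others by 0.85 on the log2 scale, and the log2 change without it was -0.36. Without the line 697 the difference between lines did not pass (0.0585). CEBPZOS on the opposite strand shares 351 exon bases with CEBPZ and was lower in SUPB15 (-0.78 ± 0.12, adjusted p = 0.00276) and REH (-0.46 ± 0.14, 0.0302).

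Untreated levels of the family differed between lines, as did those of most genes: 86.7% of all genes passed this test. DDIT3 ran in the order DND41 (18.6 CPM), 697 (18.3), RS411 (17.4), SUPB15 (15.3), REH (12.2), Nalm6 (9.71) and CEM (7.58). No neighbours in this order were told apart, though 12 of the 21 pairs of lines were. CEBPB ran from DND41 (27.9 CPM) through REH (17.5), CEM (15.7), Nalm6 (9.69), RS411 (7.78) and SUPB15 (7.15) to 697 (5.29). Again no neighbours differed by the test, against 13 of 21 pairs. For CEBPG the order was Nalm6 (146 CPM), 697 (137), SUPB15 (135), REH (124), DND41 (107), RS411 (99.8) and CEM (66.7), where only RS411 and CEM were neighbours told apart (adjusted p = 0.00107). CEBPZ was highest in 697 (235 CPM), which was told apart from SUPB15 (158), the next in order (0.0033), and lowest in Nalm6 (109).

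CEBPA had the widest range. It ran from SUPB15 (45.2 CPM) through 697 (19.0), RS411 (10.1), Nalm6 (2.06) and CEM (0.559) to REH and DND41, both at 0. Of these neighbours, 697 and RS411 (adjusted p = 0.124) and the lines at 0 were not told apart. CEBPE was highest in REH (4.99 CPM), followed by RS411 (3.04) and CEM (2.99), which the test did not separate from their neighbours, and by Nalm6 (0.732), which was lower than CEM (1.29e-05). Between lineages, the T lines exceeded the B lines in CEBPB by 1.26 ± 0.17 log2 units (adjusted p = 5.47e-08) and were lower in CEBPG (-0.59 ± 0.089, 6.62e-07) and CEBPZ (-0.34 ± 0.096, 0.00319). DDIT3 did not pass (-0.26 ± 0.12, 0.0738), where 52.1% of all genes did. With 2 T lines, a difference of lineage cannot be told apart from a difference of these lines.

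Set on a scale of CPM per kilobase of exon, which adjusts levels for gene length only, the makeup of the 6 bZIP members shifted. G and C bases make up 43.9% of the longest transcript of CEBPG and 49.7% of DDIT3. In the others they make up 62.9% (CEBPE) to 70.0% (CEBPD), which was not adjusted for. CEBPG was the largest in all 7 untreated lines, with 46.2 to 70.9% of their sum. DDIT3 went from 16.2 to 29.1% untreated to 35.4 to 63.1% treated and became the largest in 5 lines. In SUPB15 its share went from 19.1 ± 3.74% to 63.1 ± 0.659% (SD, n = 3). In DND41, where it changed least, it went from 27.0 ± 3.37% to 35.4 ± 0.345%, and CEBPG remained the largest. REH was the other line with CEBPG at the top, by 38.1 against 38.0%. With the length of the longest coding transcript in place of all exons, DDIT3 was the largest in all 7 treated lines. CEBPB was at 4.77 to 26.8% untreated and at 8.6 to 27.7% treated. In bulk RNA a changed level in all cells and a changed share of cells cannot be told apart.

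**Figure D5:**
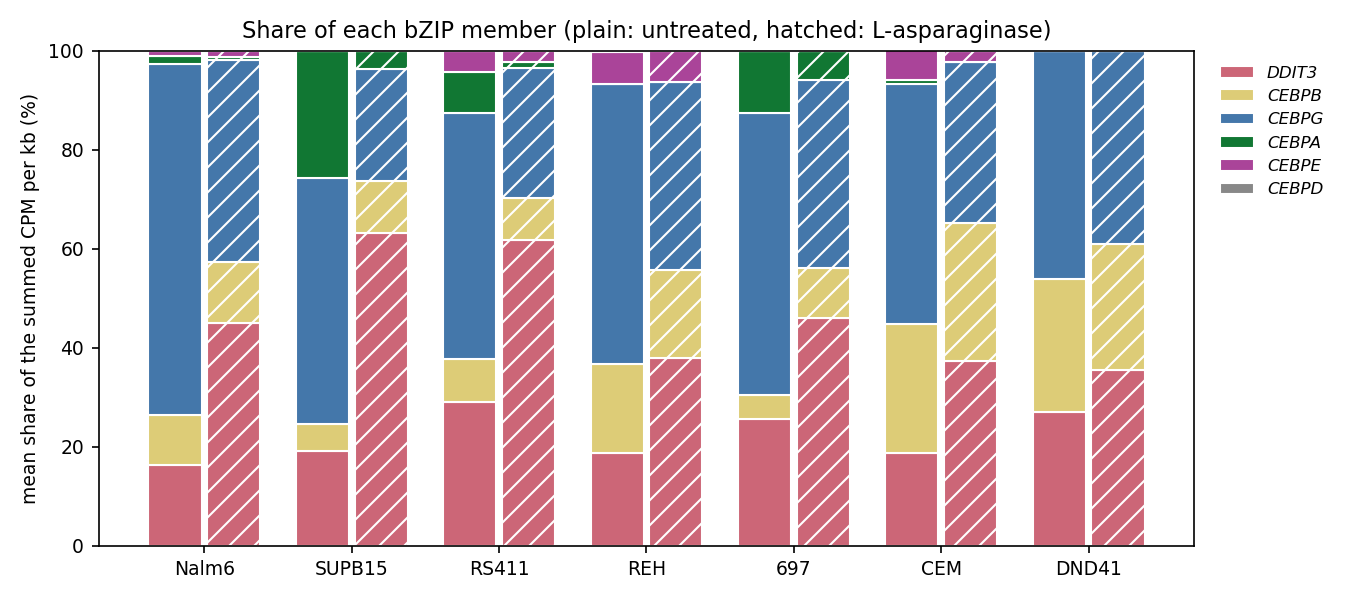
Mean share of each of the 6 bZIP members in their summed CPM per kilobase of merged exons, in percent, in untreated (plain) and treated (hatched) libraries of each line, n = 3 each. The DDIT3 share is larger in the treated bar of every line, from 16.2 to 29.1% untreated to 35.4 to 63.1% treated, and CEBPG is the largest in every untreated bar.

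Genes that work with the family were followed in 7 lists, over the mean response of the 7 lines and over genes with counts in all 14 groups. Among all 15976 such genes, 47.5% were called, 22.4% higher and 25.2% lower, with a median log2 change of -0.04. Of the bZIP partners of C/EBP proteins, 8 of 9 tested were higher and 1 lower, with a median of 0.41. JDP2, a partner of DDIT3 and JUN, rose by 1.71 ± 0.14 on the log2 scale (adjusted p = 2.48e-12), ATF3 by 1.21 ± 0.12 (3.44e-10) and JUN by 0.91 ± 0.16 (1.5e-05), whereas FOS was lower (-0.58 ± 0.21, 0.0253). The FOS call was lost without Nalm6, without REH and without the 3 treated libraries named above. ATF4, singled out after its values were seen as the factor upstream of DDIT3, was the most abundant partner at 420 to 796 CPM untreated and moved by 0.16 ± 0.053 (0.0134).

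Genes known to carry a composite C/EBP-ATF element were higher in 9 of 9 cases, with a median of 1.21. TRIB3, a pseudokinase that binds ATF4 and DDIT3, rose by 2.37 ± 0.16 (adjusted p = 5.04e-14), SLC7A11, the cystine transporter, by 2.14 ± 0.13 (4.34e-15), CHAC1 by 2.10 ± 0.17 (1.5e-12) and SLC3A2, the heavy subunit that carries SLC7A11 to the membrane, by 1.36 ± 0.11 (8.94e-13). Targets described for DDIT3 were higher in 6 and lower in 2 of 9, with a median of 0.33. By line the median was taken over the listed genes tested in that line, so the sets differ. It ran from -0.26 in Nalm6 (9 genes, 1 higher and 1 lower) to 0.83 in 697 (8 genes, 2 higher). In DND41 it was -0.05 (11 genes, 1 higher and 1 lower). In SUPB15, the line with the highest DDIT3 fold change, it was 0.02 (9 genes). TRIB3 and CHAC1 are in both lists. Other genes are also shared between lists, so the counts of the lists are not independent. ATF3 is among the partners and the genes with a composite element, and ATF5 among the partners and the DDIT3 targets. ATF4 is among the partners and the genes of the eIF2 step, and PPP1R15A among the DDIT3 targets and the genes of that step. BBC3, which encodes the death factor PUMA, rose by 0.74 ± 0.20 (0.00277), and ERO1A (ERO1L in the list), an oxidase of the endoplasmic reticulum, fell by 0.72 on the log2 scale (SE 0.075, 6.54e-10) and was lower in 6 of 7 lines.

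At the eIF2 step upstream of DDIT3, 3 of 8 genes were higher and 3 lower, with a median of -0.0037. Without the line SUPB15, 1 was higher. The kinases EIF2AK2 (-0.57 ± 0.083, adjusted p = 6.93e-07), EIF2AK4 (-0.50 ± 0.045, 2.3e-11) and EIF2AK1 (-0.50 ± 0.063, 3.33e-08) were lower and EIF2AK3, the kinase PERK, higher (0.46 ± 0.066, 4.93e-07). Among factors that act on C/EBP proteins after transcription, 2 of 4 were lower and none higher (median -0.15): TRIB1, which directs C/EBPα to degradation, at -0.75 ± 0.12 (2.33e-06) and RFWD2, the ubiquitin ligase COP1, at -0.25 ± 0.043 (1.3e-05). Nucleolar partners of CEBPZ were higher in 5 of 6 (median 0.26), led by NOC3L at 0.80 ± 0.078 (1.53e-10), with NOC2L at 0.29 ± 0.058 (0.000128), RRP1 at 0.27 ± 0.062 (0.000539) and PDCD11 at 0.24 ± 0.070 (0.00612).

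Granulocyte genes under C/EBP control were uneven in level. Only 3 of 15 had counts in all 14 groups and could be tested, of which 2 were higher, too few to describe the list. LTF, lactoferrin, rose by 2.46 ± 0.27 (adjusted p = 2.08e-09) from group means of at most 0.361 CPM, and CTSG, cathepsin G, by 1.05 ± 0.20 (6.79e-05) from at most 8.41 CPM. PRTN3 and S100A8, which stood at 0 CPM in every group, and CSF3R, at most 0.533 CPM in any group, are named after their values were seen. So are MMP9 and MPO, which were not silent. MMP9 was called higher in 2 lines, with group means of at most 1.75 CPM untreated and 40.9 CPM treated. MPO was called in no line, with group means of at most 35.3 CPM untreated and 31.3 CPM treated.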

How the data were processed

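The deposited tables hold raw counts of reads per gene symbol, 1 table per line with 6 libraries each, made by the authors on hg19, per the submitters' processing notes; for aligner, counter, annotation and strand setting, the entry is: not given in the sources used here. Groups come from the labels, which record 3 independent experiments; the letters or numbers of the replicates come from the table columns, and p-values measure the spread between these libraries. Gene positions and exon lengths are from GENCODE 29 and promoters from RefSeq, both on GRCh38, matched by symbol.

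Counts were fitted with edgeR 4.0.16 in R 4.3.3 (TMM, filterByExpr at its minimum count of 10, quasi-likelihood test, two-sided), per line and in a joint model of 42 libraries with 14 groups. P-values were adjusted by Benjamini-Hochberg over all genes tested, and a gene was called at an adjusted p under 0.05. The fit was tested on simulated data. Members and lists were chosen with earlier results of these data known. From each list, up to 4 genes called in the mean response were named by size of change. Alternatives were DESeq2 1.42.0, other scaling, no filter, a replicate block, and leaving out libraries or lines; the means of 5 lines for CEBPA and of 4 for CEBPE, and the second length for shares, were chosen after seeing the data. Libraries were taken as paired by replicate identifier where every correlation of same-numbered deviations was over 0.1. This held in SUPB15, RS411, REH, CEM and DND41, with lowest values of 0.19, 0.11, 0.43, 0.23 and 0.36, and not in Nalm6 (0.06) or 697 (-0.08). The highest correlation between unlike identifiers was 0.14, 0.27, -0.06, 0 and 0.33 in the same order. In RS411 it exceeded the lowest value of like identifiers, and in SUPB15 and DND41 it came close, so the pairing is uncertain in these lines.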

Additional observations from a re-analysis of the deposited data

Results flagged for a closer look

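The response to L-asparaginase differed between lines for 4 of the 6 members tested, by the test of all differences in the joint model, which 19.4% of all genes passed. The range of log2 changes over lines was 2.33 for DDIT3, 1.88 for CEBPB, 0.98 for CEBPG and 1.00 for CEBPZ. SUPB15 was above the other lines in DDIT3 and CEBPB and DND41 below them, 697 was also below in DDIT3, CEM was above in CEBPG and 697 below in CEBPZ.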

How the results depend on the processing

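With the replicate block, 6 members in place of 3 were called in REH, where CEBPD, CEBPG and CEBPZ were gained, and 0 in place of 2 in 697, where the libraries were not paired; the block changed the number of members called by over 1.5 times in no other line. With library totals and no scaling factors, 1 member was called in 697, where CEBPB was lost (adjusted p = 0.0539); CEBPG was lost in DND41 (0.0706) and CEBPZ gained in REH (-0.34, 0.0358). Leaving out single libraries gave 2 to 5 members called in SUPB15, 2 to 4 in RS411, 0 to 3 in 697 and 1 to 3 in DND41. CEBPA was lower in 1 line with DESeq2, in 5 without the 5 first untreated libraries (all CEM libraries kept) and in 1 without the 3 treated libraries. The range between lines for CEBPB was 1.72 without those treated libraries (adjusted p = 0.0569) and 1.56 without DND41 (0.107), and for CEBPG 0.69 without CEM (0.125). The mean of CEBPZ, which was not called, was 0.0215 without the 5 untreated libraries and 0.0432 without 697. Its range was 0.51 without 697 (0.0585) and 0.65 to 1.13 with single libraries left out, with an adjusted p of 0.0516 without treated library 3 of 697. CEBPE in CEM, also not called, ran from -0.0038 (without treated C) and -0.0012 (without untreated A) to 0.44. The cause of these changes was not tested. Of all values of a member in a line, 178 of 190 kept direction and side of the threshold under alternatives that left out no single library. With single libraries left out, 187 of 228 did, 32 lost a call, 7 gained one and 2 changed sign. Members under about 1 CPM, as CEBPA in CEM and CEBPD in REH, rest on 13 to 51 counts per group, which limits their precision.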
